A study of Mus musculus with 12 samples.

Results

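Heat shock proteins and chaperonins are the protein folding machines of the cell. They were taken here as every gene of the count table whose symbol marks it as an Hsp70, Hsp90, Hsp110, Hsp60 or Hsp10 protein, a small Hsp, a J protein or a subunit of the cytosolic chaperonin TRiC. The rule found 79 of the 32546 genes in the table: 13 Hsp70 genes, 3 Hsp90 genes, 1 Hsp110 gene, 2 genes for Hsp60 and Hsp10, 7 small Hsps, 9 TRiC subunits, and J proteins of class A (4 genes), class B (12 genes) and class C (28 genes). Another 6 symbols matched the pattern but were left out as pseudogenes or antisense transcripts.

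Hsp70 proteins bind unfolded stretches of other proteins, J proteins bring them their clients and start their ATPase, and Hsp110 proteins exchange their nucleotide. Hsp90 takes over folded or nearly folded clients such as kinases and steroid receptors, while the barrel-shaped chaperonins enclose a client, Hsp60 with its lid Hsp10 in mitochondria and TRiC in the cytosol, where it folds actin and tubulin. In neurons the constitutive Hsp70 protein Hspa8 also strips clathrin from vesicles with the J protein auxilin (Dnajc6) and works at synaptic vesicles with cysteine string protein (Dnajc5), and heat or other protein damage raises many of these genes through heat shock factor.

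The study applied photo-isolation chemistry to the mouse hippocampus: in a section, reverse transcription primers are blocked until light is shone on a chosen region, so that the sequenced cDNA comes from there. Regions CA1, CA3 and dentate gyrus (DG) were each taken from male ICR (Slc:ICR) mice 8 weeks old under 4 histological conditions. Each of the 12 combinations is 1 library that pools 4 barcoded replicates, 48 replicates in all, so that within a condition region and library cannot be told apart. The paper describes 4 biological replicates for each condition, but the labels do not say which mouse gave which replicate. In fits on replicates, the p-values measure only the spread between these replicates. In tests over libraries, they measure the spread between the 12 library sums with condition as a term.

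The first condition (fresh-frozen HCl) used unfixed tissue, cut frozen and opened for 5 min at room temperature with 0.1 N HCl. The second (fresh-frozen TE) used the same kind of section, opened for 1 h in TE buffer at 70 °C. Then came frozen sections of tissue fixed with 4% PFA and opened in TE (fixed frozen), and last paraffin sections of tissue fixed with 4% PFA and opened in TE (paraffin). Neighbouring conditions in this order differ in permeabilization, fixation of the tissue or embedding, and each of these is more than a single change. The HCl treatment also includes Triton X-100 and, in the published protocol, heated PBS. That protocol briefly treats every section with PFA before permeabilization, so that unfixed here means tissue not fixed before it was cut.

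Depth fell with fixation. The lowest, median and highest total of a replicate were 127253, 731106.5 and 933756 UMIs (unique molecular identifiers, each counting 1 molecule) in fresh-frozen HCl and 294445, 629964.5 and 1111804 in fresh-frozen TE. They were 52800, 122520.5 and 307145 UMIs in fixed frozen and 35932, 67528 and 223055 in paraffin. All 79 genes had a UMI in some replicate, 70 had at least 10 over the 48 replicates, 32 had at least 1000, and 29 had a UMI in every replicate. At least 1 UMI was found for 77 of them in fresh-frozen HCl, 75 in fresh-frozen TE, 69 in fixed frozen and 74 in paraffin. Levels below are in CPM (a gene's UMIs divided by all UMIs of the replicate, times 1000000), and a CPM of 0 allows up to 3 UMIs. The summed level of the 79 genes over 12 replicates had a lowest, median and highest value of 4817, 5919 and 6789.8 CPM in fresh-frozen HCl and 6494, 7336 and 8717 in fresh-frozen TE. It was 8092, 8766 and 12008 CPM in fixed frozen and 5571, 7883 and 9150.2 in paraffin.

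The regions carried their own markers. Over the 12 libraries, with condition as a term of the fit, 5 of 5 CA1 markers were higher in CA1 than in DG and 5 of 5 were higher than in CA3. All 5 CA3 markers were higher in CA3 than in DG and than in CA1, and 5 of 6 granule cell markers were lower in CA1 and in CA3 than in DG. The libraries also hold other cells of each region, and in such bulk samples fewer cells of a type and less RNA per cell cannot be told apart.

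Which chaperones differ between pyramidal cell regions and the dentate gyrus was asked over all 12 libraries first. Hspa8 and the J protein Dnajb2 were higher in both CA1 and CA3 than in DG, and 4 more genes were called higher in CA3 than in DG: Hsp90aa1, Hspa4l, Hsph1 and Dnajc6. The J protein Dnajb4 was lower in CA1 than in DG. Between the pyramidal regions, Dnajc6 and Hsp90aa1 were lower in CA1 than in CA3. The calls made up 3 of 70 tested members for CA1 against DG, where 10.2% of all genes were called, 6 of 70 for CA3 against DG (8.18% of all genes) and 2 of 70 for CA1 against CA3 (4.67% of all genes). A call means an adjusted p under 0.05, and without the adjustment p was under 0.05 for 14, 9 and 8 members. The median log2 difference of the members was 0.03, 0.05 and -0.05 in the 3 comparisons, beside 0.00, -0.01 and 0.02 for all genes tested. These shares lie near or under the background and say nothing particular about the members.

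The same question within each condition rests on 8 replicates. CA1 against DG gave 10 called members of 67 in fresh-frozen HCl (17% of all genes called), 2 of 67 in fresh-frozen TE (10.1%) and 3 of 61 in fixed frozen (8.14%). In paraffin edgeR called 0 of 54 members (3.29% of all genes), with 5 at an unadjusted p under 0.05, and DESeq2 called 0. CA3 against DG gave 6 of 67 in fresh-frozen HCl (8.99% of all genes), 5 of 66 in fresh-frozen TE (7.91%), 5 of 60 in fixed frozen (9.27%) and 1 of 58 in paraffin (3.21%). Of these calls 16 of 17 for CA3 were toward the higher level in CA3, but they come from 9 genes, with Hsp90aa1, Hsph1 and Dnajc6 called in several conditions. Of all genes called, 49.6%, 55.01%, 46.25% and 60.13% were higher in CA3 in the 4 conditions. Deviations of replicates with the same number correlated at over 0.1 for all 4 numbers in 3 of these 8 comparisons, CA1 with DG in fresh-frozen TE and CA3 with DG in both fresh-frozen conditions. With replicate number as a block these 3 gave 9 members in place of 2, 11 in place of 6 and 8 in place of 5, beside 16.1%, 17.3% and 13.5% of all genes, so that the share of members stayed near that of all genes.

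Hsp90aa1, the stress-inducible cytosolic Hsp90 (chr12:110690605-110702728, minus strand), separated the regions most clearly in fixed frozen sections. It stood there at 1463, 956, 912 and 1255 CPM in CA1, 3127, 2421, 2936 and 3125 in CA3 and 827, 641, 833 and 706 in DG. The regions do not overlap: every CA3 replicate lies above every CA1 replicate, and these lie above every DG replicate. CA3 exceeded DG with a log2 fold change 1.94 ± 0.16, adjusted p = 6.52e-32, and CA1 exceeded DG with a log2 fold change 0.51 ± 0.17, adjusted p = 0.0364.

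In unfixed sections both pyramidal regions also stood above DG. Its level in fresh-frozen TE was 518, 518, 532 and 451 CPM in CA1, 454, 449, 567 and 543 in CA3 and 354, 385, 438 and 319 in DG. All CA1 and CA3 replicates lie above all DG replicates there, with log2 differences from DG of 0.46 ± 0.14 (adjusted p = 0.034) in CA1 and 0.47 ± 0.15 (adjusted p = 0.0463) in CA3. With replicate number as a block, the adjusted p was 0.000243 and 0.00111. Fresh-frozen HCl gave 202, 139, 173 and 110.0 CPM in CA1, 166, 164, 212 and 137 in CA3 and 82.3, 86.8, 154 and 87.9 in DG, where replicate 3 of DG reaches into the range of the other regions. The log2 differences from DG were 0.62 ± 0.21 (adjusted p = 0.0375) in CA1 and 0.70 ± 0.20 (adjusted p = 0.0237) in CA3. Paraffin gave 1217, 1656, 1766 and 1976 CPM in CA1, 3566, 1048, 1443 and 2657 in CA3 and 2441, 1627, 1731 and 1774 in DG. These ranges overlap, and neither comparison was called.

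Several of these calls ended when any 1 of several replicates was left out, and DESeq2 made neither the CA1 call in fresh-frozen HCl nor the CA3 call in fresh-frozen TE. For CA1 against DG the Hsp90aa1 call ended without CA1 replicate 1 or 3 or DG replicate 1, 2 or 4 in fresh-frozen HCl (0.48 to 0.91 over the left-out replicates). It ended without CA1 replicate 1, 2 or 3 or DG replicate 1, 2 or 4 in fresh-frozen TE (0.39 to 0.53), and without CA1 replicate 1 or 4 or DG replicate 2 in fixed frozen (0.41 to 0.63). For CA3 against DG it ended without CA3 replicate 3 or DG replicate 1, 2 or 4 in fresh-frozen HCl (0.59 to 1.03) and without CA3 replicate 1, 3 or 4 or DG replicate 1, 2 or 4 in fresh-frozen TE (0.40 to 0.55). In fixed frozen the CA3 call held without any 1 of the 8 replicates. Over libraries, Hsp90aa1 was higher in CA3 than in DG (log2 fold change 0.82 ± 0.16, adjusted p = 2.51e-05) and lower in CA1 than in CA3 (log2 fold change -0.51 ± 0.16, adjusted p = 0.0375). Without the fixed frozen libraries neither call held (log2 fold change 0.42 and -0.16), and the second also ended without the paraffin libraries (-0.52).

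Hsp90ab1, the constitutive cytosolic Hsp90 and the member with the most UMIs (chr17:45567775-45573271, minus strand), differed less between regions. In fresh-frozen HCl its level was 451, 569, 581 and 479 CPM in CA1, 467, 692, 611 and 362 in CA3 and 383, 434, 405 and 184 in DG. All CA1 replicates lie above all DG replicates (log2 fold change 0.54 ± 0.19, adjusted p = 0.0431). The call ended in DESeq2 and without CA1 replicate 2 or 3 or DG replicate 3 or 4, with a log2 fold change of 0.35 at the lowest, without DG replicate 4. In fixed frozen sections the level was 825, 1306, 1260.3 and 1326 CPM in CA3 and 723, 849.8, 813 and 752 in DG, where CA3 replicate 1 alone falls within the range of DG (log2 fold change 0.57 ± 0.16, adjusted p = 0.0071). Leaving out CA3 replicate 2 or 3 ended that call, at a log2 fold change of 0.50 in each case. Hsp90b1, the endoplasmic reticulum form, chosen after its values were seen, was higher in CA1 than in DG in fresh-frozen HCl (log2 fold change 0.88 ± 0.24, adjusted p = 0.00651).

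**Figure D1:**
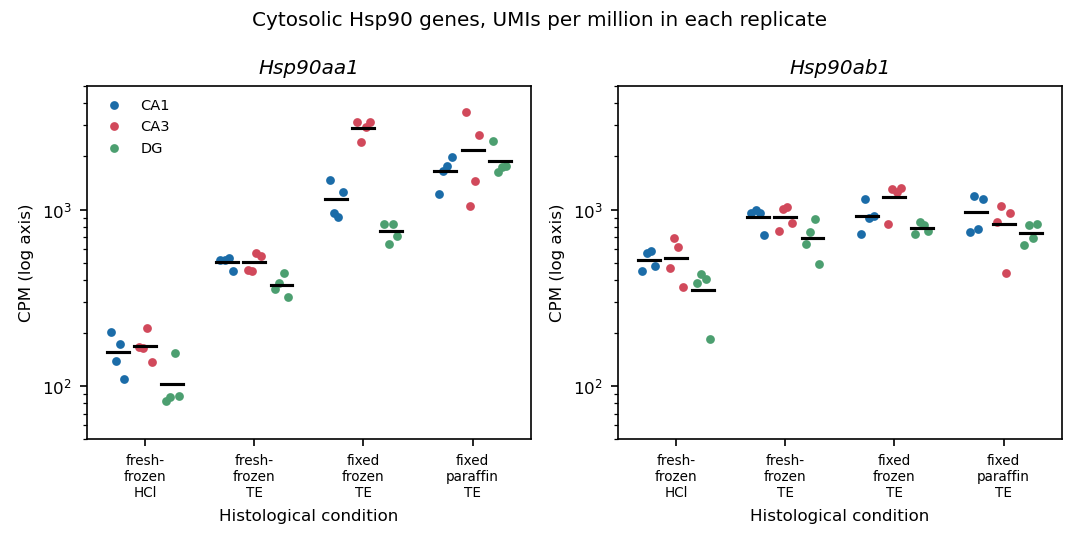
Levels of Hsp90aa1 and Hsp90ab1 in CPM on a log axis for each replicate (points), by histological condition and region, with the mean of 4 replicates as a black bar. Hsp90aa1 climbs from fresh-frozen HCl to fresh-frozen TE to fixed frozen sections, where CA3 (2421 to 3127 CPM) lies apart from CA1 and DG.

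Hspa8, the constitutive Hsp70 that uncoats clathrin (chr9:40800984-40810087, plus strand), was low in DG in fresh-frozen HCl. Its level was 47.9, 63.9, 86.3 and 7.86 CPM in CA1, 23.6, 42.8, 27.2 and 46.5 in CA3 and 8.52, 10.9, 12.7 and 8.37 in DG. Every CA3 replicate and 3 of 4 CA1 replicates lie above every DG replicate, and CA1 replicate 4, which has the smallest total of the condition (127253 UMIs), lies below them. The difference from DG was called in CA1 (log2 fold change 2.46 ± 0.37, adjusted p = 3.37e-06) and in CA3 (log2 fold change 1.71 ± 0.34, adjusted p = 0.00156), and both calls held without any 1 replicate. In fresh-frozen TE the level was 35.6, 25.6, 48.6 and 27.0 CPM in CA1, 26.5, 37.8, 40.7 and 43.0 in CA3 and 22.4, 23.9, 36.9 and 23.8 in DG, and the regions overlap. Fixed frozen sections gave 0, 22.1, 42.6 and 18.4 CPM in CA1, 50.9, 77.6, 39.1 and 18.9 in CA3 and 7.45, 3.26, 4.12 and 27.5 in DG. There 3 of 4 CA3 replicates lie above all DG replicates (log2 fold change 2.62 ± 0.66, adjusted p = 0.0019), and the call ended without CA3 replicate 2 (2.19 to 3.32). In paraffin 8 of 12 replicates were at 0.

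Over libraries Hspa8 exceeded DG in CA1 (log2 fold change 1.44 ± 0.28, adjusted p = 1.27e-05) and in CA3 (log2 fold change 1.27 ± 0.28, adjusted p = 0.000222). Without the fresh-frozen HCl libraries the CA1 call ended (0.74). Hspa8 levels need care, because 73.7% of the 30-base words in the last 500 bases of its transcripts also occur in other annotated genes, most of them in the pseudogene Gm15459.

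Hspa4l, an Hsp110-like member of the Hsp70 family that exchanges nucleotide, was higher in CA3 than in DG in unfixed tissue. In fresh-frozen HCl its level was 335, 262, 327 and 212 CPM in CA1, 283, 410.2, 349 and 358 in CA3 and 229.9, 209, 207 and 163 in DG, and in fresh-frozen TE it was 326, 375, 455 and 463 in CA3 and 250.1, 276, 252 and 217 in DG. No CA3 replicate overlaps with DG in either condition. The CA3 calls (log2 fold change 0.80 ± 0.16, adjusted p = 0.000996 in HCl and log2 fold change 0.75 ± 0.16, adjusted p = 0.0019 in TE) held without any 1 replicate. The CA1 call in HCl (log2 fold change 0.52 ± 0.18, adjusted p = 0.0398) ended in DESeq2 and without CA1 replicate 1 or 3 or DG replicate 2, 3 or 4 (0.44 to 0.59). Over libraries CA3 exceeded DG (log2 fold change 0.56 ± 0.17, adjusted p = 0.0152), and the call ended without either fresh-frozen condition (0.52 without HCl and 0.50 without TE).

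Hsph1, the Hsp110 protein, was higher in CA3 than in DG in 3 conditions, while CA1 was not called against DG in any. Its level was 178, 149, 263 and 181 CPM in CA1 in fresh-frozen HCl and 338, 269.6, 249 and 275 in fresh-frozen TE. It was 313, 369, 286 and 343 CPM in CA3 and 258, 236, 208 and 247 in DG in fresh-frozen HCl, and 305, 312, 328 and 387 in CA3 and 252, 247, 225 and 265 in DG in fresh-frozen TE. CA3 lies above DG without overlap in both (log2 fold change 0.51 ± 0.15, adjusted p = 0.0274 in HCl and log2 fold change 0.49 ± 0.15, adjusted p = 0.0455 in TE). In paraffin the level was 99.3, 403, 460.1 and 200.5 CPM in CA3 and 67.8, 151, 157 and 93.4 in DG, where 3 of 4 CA3 replicates exceed all of DG (log2 fold change 1.24 ± 0.34, adjusted p = 0.0214). The call ended without CA3 replicate 2 or 4 or DG replicate 2 or 3 in HCl (0.44 to 0.58), without any 1 of the 8 replicates in TE (0.37 to 0.53), and without CA3 replicate 2 or 3 or DG replicate 1, 2 or 4 in paraffin (0.87 to 1.56). DESeq2 made neither the TE nor the paraffin call. With replicate number as a block the adjusted p was 0.000259 in HCl and 0.00193 in TE. Over libraries CA3 exceeded DG (log2 fold change 0.55 ± 0.17, adjusted p = 0.0201), a call that ended without the fresh-frozen HCl (0.58), fresh-frozen TE (0.60) or paraffin libraries (0.42).

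Hspa2, an Hsp70 best known from male germ cells, went the other way in fixed frozen sections. It stood there at 86.9, 82.9, 76.7 and 73.8 CPM in CA1 and 186, 149.8, 157 and 202 in DG. All 4 CA1 replicates lie below all 4 DG replicates (log2 fold change -1.11 ± 0.31, adjusted p = 0.00702), and DESeq2 did not call the difference. Of the main stress-inducible pair, Hspa1a had 171 UMIs over all replicates and Hspa1b 1015. In fresh-frozen TE Hspa1a stood at 12.6, 9.04, 6.75 and 16.2 CPM in CA1, 11.8, 8.99, 6.43 and 5.86 in CA3 and 4.07, 5.11, 1.68 and 3.40 in DG, and Hspa1b stood at 87.3, 64.8, 62.1 and 78.2, 64.8, 54.9, 44.0 and 68.4 and 61.0, 39.2, 43.6 and 61.1. All CA1 and CA3 replicates of Hspa1a lie above all DG replicates there, those of Hspa1b overlap, and neither gene was called between regions.

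Of the J proteins, auxilin (Dnajc6), which brings Hspa8 to clathrin coats, set CA3 apart from the other regions in 3 of 4 conditions. It stood at 391, 238, 291 and 361 CPM in CA1, 616, 486, 522 and 619.5 in CA3 and 466, 262, 360.4 and 431 in DG in fresh-frozen HCl. In fresh-frozen TE it stood at 382, 349, 363 and 348 CPM in CA1, 930.0, 612, 599 and 920.3 in CA3 and 569, 339, 404 and 499 in DG. Fixed frozen sections gave 289.7, 171, 145 and 184 CPM in CA1, 581, 473, 524 and 701 in CA3 and 350.4, 348, 301 and 330.3 in DG. In each of these 3 conditions every CA3 replicate lies above every DG and every CA1 replicate. CA3 exceeded DG in fresh-frozen HCl (log2 fold change 0.61 ± 0.16, adjusted p = 0.0141), in fresh-frozen TE (log2 fold change 0.82 ± 0.18, adjusted p = 0.00342) and in fixed frozen (log2 fold change 0.74 ± 0.19, adjusted p = 0.00232). In fixed frozen sections CA1 also lay below DG without overlap (log2 fold change -0.87 ± 0.23, adjusted p = 0.00484), a difference that DESeq2 did not call.

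The Dnajc6 call for CA3 in fresh-frozen HCl ended without CA3 replicate 1 or DG replicate 2 or 3 (0.46 to 0.76), and the one for CA1 in fixed frozen ended without CA1 replicate 2 or 3 (-1.02 to -0.75). Over libraries Dnajc6 was higher in CA3 than in DG (log2 fold change 0.59 ± 0.17, adjusted p = 0.00935) and lower in CA1 than in CA3 (log2 fold change -1.0 ± 0.18, adjusted p = 1.01e-06). The first call ended without the fresh-frozen TE libraries (0.52), and the second held without any 1 condition. Paraffin gave 128, 126, 169.5 and 111 CPM in CA1, 199, 222, 188 and 75.2 in CA3 and 149, 187, 175 and 187 in DG, with CA3 and DG overlapping.

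Dnajb2, a J protein with ubiquitin-interacting motifs that is rich in neurons, was scarce in DG in fresh-frozen HCl. It had only 126 UMIs over all replicates of that condition, so its DG levels rest on few UMIs. With every replicate thinned to the smallest total, 0 members were called there for CA1 or CA3 against DG. Dnajb2 stood in fresh-frozen HCl at 20.5, 16.4, 23.0 and 39.3 CPM in CA1, 15.0, 28.9, 22.2 and 10.9 in CA3 and 11.3, 4.65, 1.27 and 4.19 in DG. CA1 lies above DG without overlap (log2 fold change 2.20 ± 0.53, adjusted p = 0.00255), and 3 of 4 CA3 replicates exceed all of DG (log2 fold change 2.08 ± 0.52, adjusted p = 0.00996), a call that ended without DG replicate 3 at 1.59. Over libraries Dnajb2 exceeded DG in CA1 (log2 fold change 1.25 ± 0.34, adjusted p = 0.00418) and in CA3 (log2 fold change 1.11 ± 0.34, adjusted p = 0.0165). Without the fresh-frozen HCl libraries (0.87 and 0.69) or the fresh-frozen TE libraries (1.22 and 1.21) both calls ended.

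Dnajb4, a heat-inducible J protein of the cytosol, was lower in CA1. Its pooled libraries stood at 74.0, 57.8, 47.5 and 38.2 CPM in CA1, in the order of the conditions above, and at 111, 82.3, 63.1 and 111 in DG. CA1 was the lower library in all 4 conditions (log2 fold change -0.64 ± 0.20, adjusted p = 0.0208). The call ended without the fresh-frozen HCl (-0.65), fresh-frozen TE (-0.76) or paraffin libraries (-0.53). Dnaja1, a heat-inducible J protein of class A, stood at 499, 416, 540.1 and 549 CPM in CA3 and 306, 287, 334 and 321 in DG in fixed frozen sections. CA3 lies above DG without overlap (log2 fold change 0.67 ± 0.19, adjusted p = 0.00952), and the call ended without CA3 replicate 3, at 0.59.

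**Figure D2:**
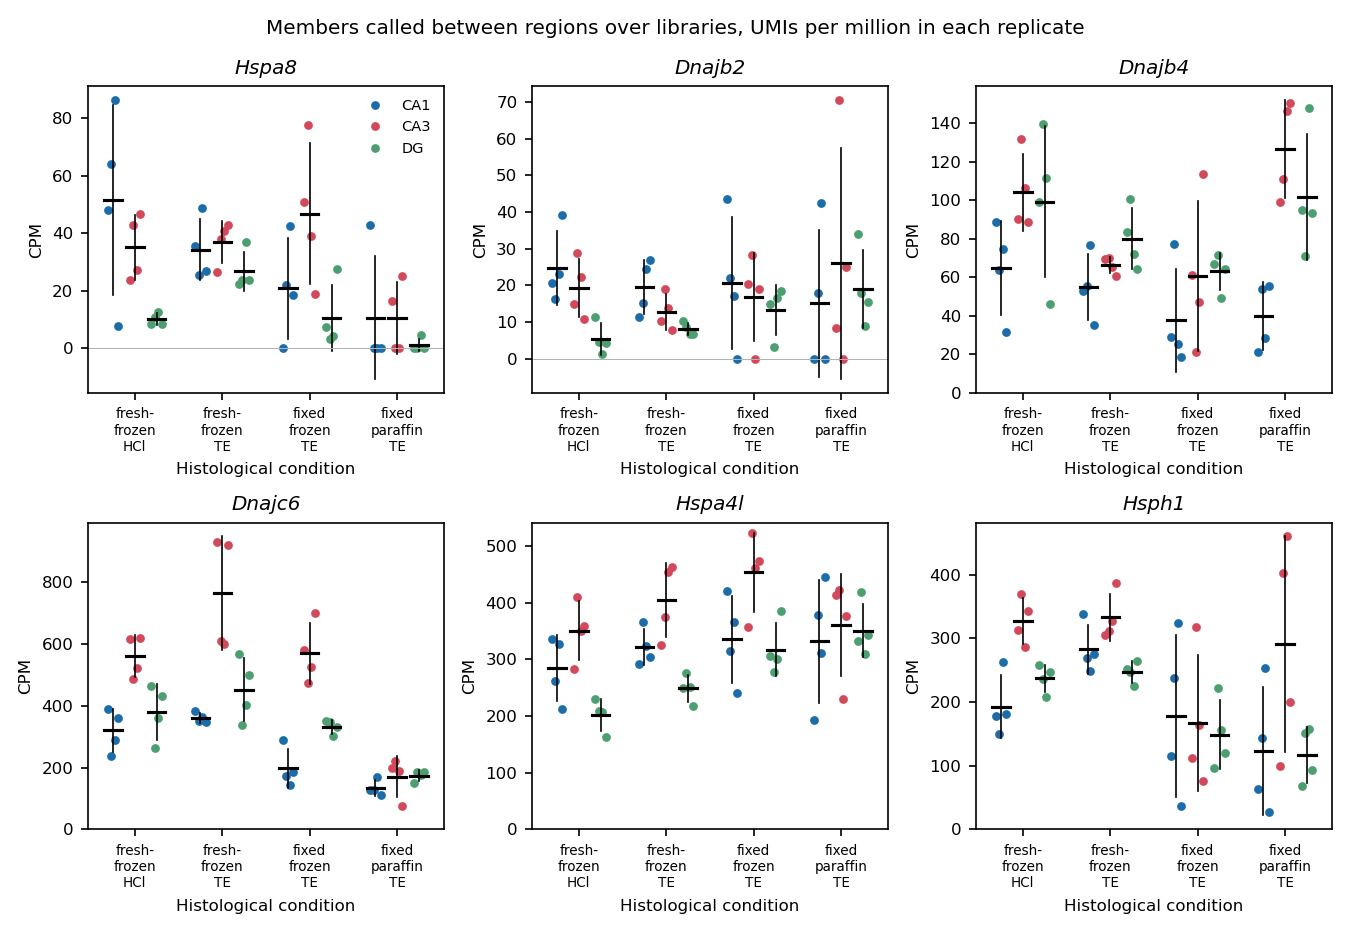
Levels in CPM of 6 members called between regions over libraries, for each replicate (points), by histological condition and region, with the mean of 4 replicates (bar) and its standard deviation (vertical line). Dnajc6 in CA3 lies above CA1 and DG in the first 3 conditions, and Hspa8 and Dnajb2 in DG lie low in fresh-frozen HCl.

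The remaining region calls touched chaperonins, small Hsps and the endoplasmic reticulum. The TRiC subunit Cct6a stood at 146, 128, 159.9 and 189 CPM in CA1 and 216, 183, 256 and 280.5 in DG in fresh-frozen HCl. Only CA1 replicate 4 reaches the range of DG (log2 fold change -0.62 ± 0.19, adjusted p = 0.0173), and the call ended without CA1 replicate 2 or DG replicate 3 or 4 (-0.73 to -0.54). Another subunit, Cct4, was also lower in CA1 (log2 fold change -0.66 ± 0.19, adjusted p = 0.012), while the J proteins of the endoplasmic reticulum Dnajb9 (log2 fold change 0.83 ± 0.29, adjusted p = 0.0439) and Dnajb11 (log2 fold change 1.22 ± 0.33, adjusted p = 0.00735) were higher. These 3 were chosen after their values were seen. Hspb8, a small Hsp that works with Bag3 in autophagy, stood in fresh-frozen TE at 4.42, 4.50, 5.36 and 3.91 CPM in CA3 and 22.4, 8.52, 20.1 and 23.8 in DG. All CA3 replicates lie below all DG replicates (log2 fold change -1.88 ± 0.45, adjusted p = 0.00673). Hspb6, a small Hsp chosen after its values were seen, stood at 0, 7.53, 9.45 and 8.09 CPM in CA1 and at 0 in all 4 DG replicates (adjusted p = 0.0223). In fresh-frozen TE its UMIs were 15 in CA1 and 0 in DG, so CA1 alone took it past the filter on low counts. The p-value thus belongs to a gene admitted by its higher region, and no region difference is concluded from it. DESeq2 and filterByExpr each called only 1 member in this comparison. No UMI among 1969322 in DG allows up to 3, and no fold change is given.

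Partners of the chaperones were read from lists of the pathway. Folding and stress genes of the endoplasmic reticulum were called 5 of 16 times for CA1 against DG over libraries, 4 higher and 1 lower. For all genes, the share called was 10.2% for CA1 and 8.18% for CA3, which holds for each list below. Higher in CA1 were the calcium-binding chaperone Calr (0.65 ± 0.20), the Hsp110-like exchange factor Hyou1 (0.99 ± 0.30), the disulfide isomerase P4hb (1.00 ± 0.25) and the J protein partner Sdf2l1 (1.62 ± 0.37), and Creld2 was lower (-0.89 ± 0.30), all as log2 fold changes. The median of the list was 0.06. For CA3 against DG 2 of 16 were called, Calr (0.65 ± 0.20) and Sdf2l1 (1.23 ± 0.38), with a median of 0.13. Among Hsp70 co-chaperones, the nucleotide exchange factor Bag4 was lower in CA1 (-0.65 ± 0.19) and in CA3 (-0.53 ± 0.19), and the mitochondrial exchange factor Grpel1 was higher in CA1 (0.97 ± 0.34), which makes 2 of 11 and 1 of 11 called. Of the prefoldin subunits, which hand clients to TRiC, Pfdn5 was higher in CA3 (0.70 ± 0.23), 1 of 6. The list of heat shock factors held Hsf1, Hsf2, Hsf4 and Hsf5 together with Hsbp1, a protein that binds such factors. By edgeR 0 of these 5 genes and 0 of 13 Hsp90 co-chaperones were called against DG in CA1 or CA3. Unadjusted p was under 0.05 for 0 and 3 in CA1 and 0 and 2 in CA3.

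The list of heat-inducible members held 14 genes, all tested over libraries. For CA3 against DG 4 were called, beside 8.18% of all genes, all higher: Hsph1, Hspa4l, Hsp90aa1 and Hspa8, with a median of the list of 0.16. For CA1 against DG Hspa8 was higher and Dnajb4 lower, 2 of 14 beside 10.2% of all genes, with a median of 0.13. Of the 4 members tied to clathrin and synaptic vesicles, Dnajc6 and Hspa8 were higher in CA3 than in DG (median 0.46). Immediate early genes, listed as a sign of recent activity, were higher in CA1 than in DG for 5 of 12 and in CA3 for 1 of 12, and their part in the region differences was not tested.

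Oligodendrocyte markers differed between the regions in the same direction as the higher chaperones. All 7 were higher in CA1 and in CA3 than in DG over libraries, and none was at 0. Their summed level in CA1, CA3 and DG was 10905, 8819.9 and 3828 CPM in fresh-frozen HCl and 7526, 7216 and 3024 in fresh-frozen TE. It was 12164, 5252 and 2515 CPM in fixed frozen and 16912, 15102 and 11277 in paraffin. DG was the lowest and CA1 the highest library in each condition. Astrocyte markers were lower than in DG in 3 of 7 cases in CA1 and in CA3. Interneuron markers were higher in CA1 in 3 of 7 cases (Sst 0.87 ± 0.17, Pvalb 1.36 ± 0.26 and Vip 1.82 ± 0.30), and Gad1 was lower in CA3 (-0.66 ± 0.17). Their summed level in CA1, CA3 and DG, with Sst the most abundant, was 1260.2, 911 and 1027 CPM in fresh-frozen HCl and 1221, 1086 and 903 in fresh-frozen TE. It was 1144, 804 and 1044 CPM in fixed frozen and 899, 711 and 1027 in paraffin. Erythrocyte markers were lower in 3 of 3 cases in CA1 and 1 of 3 in CA3, and choroid plexus markers in 1 of 5 cases in each. The reference genes were higher in both regions on the log2 scale, Gapdh by 2.40 ± 0.31 in CA1 and 2.25 ± 0.31 in CA3, and Actb by 0.46 ± 0.16 and 0.53 ± 0.16. The part of other cell types in the chaperone differences was not tested.

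Whether a region difference itself changed with the condition was tested as the difference of differences against fresh-frozen TE. Hspa8 was called for CA1 minus DG in fresh-frozen HCl (log2 fold change 2.02 ± 0.51, adjusted p = 0.0232), 1 of 70 members beside 0.741% of all genes. Hsp90aa1 was called for CA3 minus DG in fixed frozen sections (log2 fold change 1.40 ± 0.27, adjusted p = 0.00141), 1 of 70 beside 0.122%. With every replicate thinned to the smallest total, both calls were lost, where 0.2% and 0.1% of all genes were called. The other 4 tests, run with edgeR only, called 0 of 70 members. These were CA1 minus DG in fixed frozen (0.0953% of all genes called, 4 members at an unadjusted p under 0.05) and paraffin (0.477%, 10 members), and CA3 minus DG in fresh-frozen HCl (0.106%, 3 members) and paraffin (0.334%, 9 members). For every other member named above, a call in one condition and not in another does not show that its region difference changed.

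Outside the members, the prefoldin subunit Pfdn5 was called for CA1 minus DG in fixed frozen sections (log2 fold change -2.65 ± 0.55, adjusted p = 0.00548). Its level was 24.1, 24.1, 32.4 and 35.1 CPM in CA1 and 10.2, 11.9, 16.8 and 17.0 in DG in fresh-frozen TE, against 43.5, 60.8, 42.6 and 0 and 164, 127, 107 and 128 in fixed frozen. CA1 lies above DG without overlap in the first and below DG without overlap in the second. The reference gene Gapdh was called for CA1 minus DG in fresh-frozen HCl (log2 fold change 3.11 ± 0.75, adjusted p = 0.0125). It stood there at 54.7, 111, 288 and 126 CPM in CA1 and 5.68, 14.0, 5.08 and 4.19 in DG. In fresh-frozen TE it stood at 14.9, 21.1, 28.4 and 10.8 CPM in CA1 and 4.07, 15.3, 10.1 and 6.79 in DG. The DG levels rest on few UMIs, with replicate totals of 238861 to 787907 in fresh-frozen HCl and 294445 to 596072 in fresh-frozen TE. Whether Gapdh reads were lost to genes of shared sequence was not tested.

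How the histological steps bear on the chaperones was asked with region as a term and 24 replicates per comparison. A condition holds only 1 library per region, so these p-values measure the spread between barcoded replicates and not between libraries. Over library sums, 1 member rose and 23 fell for HCl, beside 22.4% of all genes called. For fixation 25 rose and 9 fell (37.8%), and for paraffin 1 rose and 21 fell (20.4%). HCl in place of TE permeabilization went with lower levels of members: 26 fell and 1 rose of 69 tested, together 27 beside 30.6% of all genes, with 16.2% of all genes higher and 14.3% lower. Hsp90aa1, the J proteins Dnajc2, Dnajc5 and Dnaja1, and Hsp90ab1 fell most among members with a mean of at least 10 UMIs, and Dnajc18 rose. The median log2 difference was -0.15 over the members and 0.10 over all genes tested. Where the replicates averaged 10 UMIs or more (well counted genes), it was -0.19 for 51 members and -0.05 for 8436 genes. At an unadjusted p under 0.05 there were 30 members. Same-numbered replicates of HCl and TE correlated at over 0.1 for all 4 numbers in CA3 and in DG but not in CA1, and with replicate number as a block 26 members fell and 3 rose (34% of all genes called). DESeq2 and its size factors in edgeR each gave 25 down and 3 up, and filterByExpr gave 23 and 3. With every replicate thinned to the smallest total, 5 members fell and 0 rose, beside 6.6% of all genes called.

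All 3 Hsp90 genes fell in HCl. The lowest, median and highest level of Hsp90aa1 over 12 replicates was 82.3, 146 and 212 CPM in HCl and 319, 452 and 567 in TE. The conditions do not overlap (log2 fold change -1.80 ± 0.11, adjusted p = 4.91e-19). For Hsp90ab1 it was 184, 459 and 692 CPM in HCl and 492, 858 and 1031 in TE, with overlap (log2 fold change -0.98 ± 0.11, adjusted p = 5.03e-10).

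J proteins of class C fell in 10 of 25 cases and rose in 1, beside 2 of 3 in class A and 1 of 10 in class B that fell. Dnajc2, a J protein at the ribosome that helps nascent chains fold, had a lowest, median and highest level of 11.4, 22.7 and 32.2 CPM in HCl and 33.9, 74.7 and 106 in TE, without overlap (log2 fold change -1.85 ± 0.17, adjusted p = 1.26e-12). Cysteine string protein Dnajc5 stood at 86.4, 215 and 350.2 CPM in HCl and 279, 367 and 516 in TE (log2 fold change -1.01 ± 0.11, adjusted p = 5.4e-10). Dnaja1 stood at 149, 199 and 277 CPM in HCl and 267, 376 and 432 in TE, where only the extremes meet (log2 fold change -1.0 ± 0.10, adjusted p = 1.28e-11). Dnajc18, a little studied J protein with a membrane anchor, was at 85.2, 116 and 156 CPM in HCl and at 64.5, 71.3 and 85.2 in TE with a narrow gap between the conditions (log2 fold change 0.52 ± 0.11, adjusted p = 0.000128).

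Among Hsp70 and Hsp110 proteins 4 of 13 and 1 of 1 fell by smaller amounts: Hspa5, the Hsp70 of the endoplasmic reticulum (-0.40 ± 0.11), Hspa4l (-0.35 ± 0.10), Hsph1 (-0.34 ± 0.10), Hspa1b (-0.35 ± 0.13) and Hspa13, which was chosen after its values were seen (-0.60 ± 0.12). With every replicate thinned to the smallest total, the Hspa1b change turned to a log2 fold change of 0.32, which was not called. The Hspa1b call (adjusted p = 0.0411) was lost with DESeq2's size factors and without any 1 of 12 replicates: replicates 1, 2 and 3 of CA1 and of CA3 in HCl, and replicates 1 and 4 of CA1, CA3 and DG in TE. Of the chaperonins Hspd1 (Hsp60) fell (log2 fold change -0.74 ± 0.15, adjusted p = 0.000122), as did 3 of 8 TRiC subunits, among them Cct6a (-0.60 ± 0.10) and, chosen after their values were seen, Tcp1 (-0.75 ± 0.18) and Cct8 (-0.67 ± 0.13). Of 4 small Hsps Hspb8 fell (-1.09 ± 0.35). By place, 5 of 8 members of the endoplasmic reticulum fell (median -0.41), 2 of 8 in mitochondria (0.02), 2 of 4 tied to clathrin and synaptic vesicles (-0.29) and 8 of 14 on the heat-inducible list (-0.35).

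Partners moved both ways with HCl. Hsp90 co-chaperones rose in 3 and fell in 3 of 13 cases (median 0.13), Hsp70 co-chaperones in 2 and 2 of 11 (-0.15), and folding and stress genes of the endoplasmic reticulum in 3 and 4 of 16 (0.04). The largest changes among partners were in the prefoldin subunit Pfdn2 (log2 fold change -1.41 ± 0.12, adjusted p = 1.28e-13), the 1 called of 6, and the stress factor Atf4 (log2 fold change -1.40 ± 0.12, adjusted p = 4.93e-13). Of the 5 genes on the list of heat shock factors and Hsbp1, 1 was called, Hsf1, chosen after its values were seen (0.61 ± 0.19). Of 7 mitochondrial quality control genes 2 rose. The reference genes moved in opposite directions, Gapdh up (1.49 ± 0.31) and Actb down (-0.49 ± 0.10).

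Markers of other cells moved with HCl as well. Astrocyte markers fell in 4 and rose in 1 of 7 cases, and their summed level over 12 replicates had a lowest, median and highest value of 3444, 4210.2 and 5685 CPM in HCl and 4340.4, 5234 and 8008 in TE, with Slc1a2 the most abundant. Endothelial markers rose in 4 of 5 cases, with 259, 391 and 525 CPM in HCl, 213, 282 and 354 in TE and Flt1 the most abundant. Oligodendrocyte markers rose in 3 and fell in 1 of 7 cases (3367, 9031 and 18852 CPM in HCl and 2620.4, 6551 and 10612 in TE). Interneuron markers rose in 1 and fell in 3 of 7, microglia markers in 2 and 2 of 6, CA3 markers in 1 and 2 of 5 and granule cell markers in 2 and 1 of 6. Erythrocyte markers fell in 2 of 3 cases and CA1 markers in 1 of 5. The part of these shifts in the chaperone changes was not tested.

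PFA fixation of frozen tissue, compared in TE sections, went with calls in both directions. Of 69 members 25 rose and 12 fell, together 37 beside 48.7% of all genes, with 15.8% of all genes higher and 32.9% lower. Hsp90aa1, 6 of 8 mitochondrial chaperones and 5 of 8 TRiC subunits rose, while Dnajc1, Dnajc2, Dnajc3, Dnajb14 and Hsph1 fell. The median log2 difference was 0.24 over the members and -0.39 over all genes tested, and unadjusted p was under 0.05 for 41 members. Depth was lower in the fixed libraries by the totals given above. With every replicate thinned to the smallest total, 22 members were called, 19 up and 3 down, beside 29% of all genes (1236 up and 1352 down). The median of all genes was then -0.07, and it was -0.19 in DESeq2 and -0.05 with filterByExpr, where 27 members rose and 9 fell. Among well counted genes, the median under TMM was 0.20 for 50 members and -0.30 for 6379 genes.

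Hsp90aa1 rose further with fixation, from 319, 452 and 567 CPM to 641, 1106 and 3127 (lowest, median and highest), again without overlap (log2 fold change 1.51 ± 0.12, adjusted p = 6.43e-19). It was the 1 called gene of the 3 Hsp90 genes. Hsp90ab1 went from 492, 858 and 1031 CPM to 723, 872 and 1326, and the ranges overlap.

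Of the 8 mitochondrial chaperones 6 rose, with a median of 0.95. Hspe1 (Hsp10) went from 27.2, 47.7 and 154 CPM to 94.7, 176 and 261 (log2 fold change 1.32 ± 0.19, adjusted p = 8.29e-09), and its partner Hspd1 from 27.2, 41.8 and 60.04 to 39.1, 76.2 and 138 (log2 fold change 0.89 ± 0.19, adjusted p = 3.46e-05). All 12 fixed replicates of Hspe1 lie above 9 of 12 unfixed ones, and replicate 3 of each region in unfixed sections lies among them. For Hspd1 the ranges overlap at 1 fixed sample in CA3. Dnaja3, the J protein of the mitochondrial matrix, rose by a log2 of 1.52 ± 0.21 and Dnajc15, a J protein at the import channel, by 1.49 ± 0.19. Hspa9, the mitochondrial Hsp70, chosen after its values were seen, rose as well (log2 fold change 1.01 ± 0.13, adjusted p = 4.07e-11), as did Dnajc30 (0.44 ± 0.18), chosen likewise. Of 7 other mitochondrial quality control genes 1 rose, with a median of 0.08.

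TRiC subunits did not move as a block, with 5 of 8 up and 2 down (median 0.66). Cct3 went from 82.4, 104 and 144 CPM to 128, 233 and 295 (log2 fold change 1.00 ± 0.14, adjusted p = 1.13e-09) and Cct6a from 192, 261 and 328 to 333, 375 and 530.3 (log2 fold change 0.49 ± 0.11, adjusted p = 0.000171), the latter without overlap. Chosen after their values were seen, Cct5 (1.37 ± 0.14), Cct4 (0.84 ± 0.13) and Cct2 (0.83 ± 0.15) also rose, and Tcp1 (-0.67 ± 0.28, or -0.28 relative to the median of all genes) and Cct8 (-0.48 ± 0.17, or -0.10) fell.

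J proteins were called in both directions under fixation, with 2 of 3 up in class A, 5 up and 1 down of 10 in class B, and 4 up and 7 down of 25 in class C. Dnajb6, which holds back polyglutamine aggregates, went from 23.8, 40.6 and 54.9 CPM to 37.9, 134 and 174 (log2 fold change 1.58 ± 0.17, adjusted p = 1.59e-13). Dnajc7, which binds Hsp70 and Hsp90 through TPR repeats, went from 25.4, 41.6 and 56.8 CPM to 36.9, 124 and 159 (log2 fold change 1.42 ± 0.17, adjusted p = 3.03e-11). Dnajb1, the main heat-inducible J protein, went from 13.6, 32.1 and 46.9 CPM to 14.9, 56.1 and 113 with wide overlap (log2 fold change 0.74 ± 0.22, adjusted p = 0.00272). Those that fell include Dnajc1 and Dnajc3, which sit at the endoplasmic reticulum (-1.86 ± 0.21 and -1.06 ± 0.17), Dnajc2 (-1.10 ± 0.23), Dnajb14 (-1.05 ± 0.13), Dnajc6 (-0.64 ± 0.12) and Dnajc5 (-0.60 ± 0.13). Relative to the median of all genes these 6 stood at -1.47, -0.67, -0.71, -0.66, -0.25 and -0.21. Dnajc1 went from 79.6, 105 and 148 CPM to 7.83, 31.5 and 71.3, without overlap.

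Hsp70 genes rose in 5 and fell in 1 of 13 cases. Hspa2 went from 36.2, 54.2 and 102 CPM to 63.5, 115 and 202 (log2 fold change 1.08 ± 0.17, adjusted p = 5.04e-08). Hsph1 fell, from 225, 272 and 387 CPM to 36.9, 138 and 324 (log2 fold change -0.71 ± 0.15, adjusted p = 2.74e-05; -0.32 relative to all genes). Its fixed replicates spread widely and reach the unfixed range. Of 4 small Hsps Hspb11, which is also a subunit of intraflagellar transport, rose from 1.95, 6.11 and 13.6 CPM to 18.4, 30.2 and 43.5, without overlap (log2 fold change 2.03 ± 0.32, adjusted p = 1.18e-07). On the heat-inducible list 4 of 14 rose and 1 fell (median 0.05), in the endoplasmic reticulum 2 of 8 rose and 3 fell (-0.26), and of 4 members tied to clathrin and synaptic vesicles 2 fell (-0.53).

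Partners were called in both directions with fixation. Hsp90 co-chaperones rose in 5 and fell in 1 of 13 cases (median 0.27), Hsp70 co-chaperones rose in 4 of 11 (0.21), and prefoldin subunits rose in 4 and fell in 1 of 6 (0.93), Pfdn5 most (log2 fold change 2.24 ± 0.23, adjusted p = 2.22e-14). Folding and stress genes of the endoplasmic reticulum rose in 5 and fell in 5 of 16 cases (-0.01), and Sdf2l1 fell most (log2 fold change -2.33 ± 0.56, adjusted p = 0.000325). On the list of heat shock factors and Hsbp1, 1 of 5 genes was called in each direction. Its median of -0.55 becomes 0.10 in the DESeq2 fit.

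Markers of other cells moved with fixation too. Astrocyte markers fell in 5 of 7 cases, and their summed level over 12 replicates had a lowest, median and highest value of 4340.4, 5234 and 8008 CPM in unfixed and 1421, 1838 and 2474 in fixed sections, with Slc1a2 the most abundant. Endothelial markers fell in 4 of 5 cases, from 213, 282 and 354 CPM to 18.9, 112 and 179, with Flt1 the most abundant. Erythrocyte markers fell in all 3 tested, from 263, 427 and 699.6 CPM to 0, 3.53 and 111, with Hbb-bs the most abundant. Oligodendrocyte markers fell in 5 and rose in 1 of 7 cases and choroid plexus markers fell in 3 of 4. Interneuron markers rose in 2 and fell in 4 of 7, CA3 markers in 1 and 3 of 5, granule cell markers in 3 and 1 of 6, and microglia markers in 1 and 1 of 6. No listed gene was at 0 over all 48 replicates. The part of these shifts in the chaperone changes was not tested.

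Embedding fixed tissue in paraffin in place of freezing it went with lower chaperone levels: 23 members fell and 2 rose of 64 tested. These 25 stand beside 28% of all genes called, with 13.7% of all genes higher and 14.4% lower, and unadjusted p was under 0.05 for 33. The median of all genes was 0.05 with edgeR's TMM and 0.22 with DESeq2's size factors, and with the latter 6 members rose and 20 fell. The members' median was -0.39 and -0.22 under the 2 scalings. Among well counted genes, the median was -0.57 for 26 members and -0.31 for 2443 genes under TMM, and -0.38 and -0.12 with DESeq2's size factors, so that part of the fall is shared by well counted genes. The filter filterByExpr left 5 members up and 13 down, and thinning to the smallest total left 2 up and 11 down. Fold changes of single genes below are therefore followed by the difference from the median of all genes under TMM, while medians of lists are given as they are. Taken from the median of the 2443 well counted genes, each difference would be higher by 0.35, and falls correspondingly smaller.

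Hsp70 genes fell in 7 of 11 cases, with a median of -0.70. Hspa2 went from 63.5, 115 and 202 CPM (lowest, median and highest) in frozen to 0, 26.1 and 42.4 in paraffin sections, without overlap (log2 fold change -2.31 ± 0.29, adjusted p = 6.88e-13; -2.36 relative to all genes). Hspa8 went from 0, 20.5 and 77.6 CPM to 0, 0 and 42.7, where most replicates are at 0 (log2 fold change -1.91 ± 0.57, adjusted p = 0.00594; -1.96 relative to all genes). Hspa5 went from 111, 305 and 511 CPM to 64.0, 117 and 240.1 with overlap (log2 fold change -1.16 ± 0.18, adjusted p = 1.03e-08; -1.20 relative to all genes). Hspa1b went from 28.2, 81.7 and 132 CPM to 0, 29.1 and 84.8 (log2 fold change -1.10 ± 0.32, adjusted p = 0.004; -1.14 relative to all genes), and Hspa1a, not called, from 0, 7.85 and 36.9 to 0, 11.5 and 30.2. For Hsph1 the log2 difference of -0.18 under TMM (-0.23 relative to all genes) turned to 0.01 with DESeq2's size factors, and it was not called.

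Hsp90aa1 and Dnajc18 were the 2 members that rose. Hsp90aa1 went from 641, 1106 and 3127 CPM to 1048, 1748 and 3566, with wide overlap (log2 fold change 0.36 ± 0.14, adjusted p = 0.0463; 0.31 relative to all genes). Its call ended without any 1 of 11 replicates: in frozen sections CA1 replicate 3 and all 4 of DG, and in paraffin CA1 replicates 2, 3 and 4, CA3 replicate 1 and DG replicates 1 and 4. Over library sums it also ended (0.44). Dnajc18 went from 36.9, 80.5 and 138 CPM to 91.0, 177 and 235 (log2 fold change 0.70 ± 0.21, adjusted p = 0.00511; 0.65 relative to all genes).

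J proteins fell in 1 of 3 cases in class A, 3 of 9 in class B and 4 of 24 in class C. Dnaja1 went from 246, 372 and 549 CPM to 62.7, 169 and 351 (log2 fold change -1.25 ± 0.17, adjusted p = 4.84e-11; -1.29 relative to all genes) and Dnajc6 from 145, 339 and 701 to 75.2, 172 and 222 (log2 fold change -1.19 ± 0.17, adjusted p = 8.99e-10; -1.24 relative to all genes). For both genes the paraffin replicates lie mostly below the frozen ones. Dnajc15, Dnajc5 and Dnajb14 fell as well (-1.27 ± 0.28, -0.93 ± 0.18 and -0.87 ± 0.20, or -1.31, -0.97 and -0.91 relative to all genes). Dnajb1 (log2 fold change -0.84 ± 0.33, adjusted p = 0.039; -0.89 relative to all genes) lost its call with DESeq2's size factors, with replicate number as a block, and without any 1 of 11 replicates. Those were in frozen sections CA1 replicates 2 and 3, CA3 replicate 2 and DG replicates 2 and 4, and in paraffin replicates 1 and 2 of CA1 and of DG and replicates 3 and 4 of CA3.

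Both mitochondrial chaperonin genes and 5 of 8 TRiC subunits fell in paraffin, the latter with a median of -0.87. Cct3 went from 128, 233 and 295 CPM to 0, 74.2 and 146 (log2 fold change -1.70 ± 0.21, adjusted p = 6.9e-13; -1.75 relative to all genes) and Cct6a from 333, 375 and 530.3 to 72.0, 224 and 312, without overlap (log2 fold change -1.11 ± 0.17, adjusted p = 4e-09; -1.15 relative to all genes). Hspd1 went from 39.1, 76.2 and 138 CPM to 15.6, 47.8 and 100.2 (log2 fold change -1.01 ± 0.28, adjusted p = 0.00245; -1.06 relative to all genes) and Hspe1 from 94.7, 176 and 261 to 42.7, 93.8 and 250.5 (log2 fold change -0.84 ± 0.21, adjusted p = 0.000485; -0.89 relative to all genes), both with overlap. Of 3 small Hsps Hspb11 fell (-1.34 ± 0.47, or -1.39 relative to all genes), a call that DESeq2 did not make. By list, 4 of 8 mitochondrial members fell (median -0.59), 2 of 8 of the endoplasmic reticulum (-0.46), 3 of 4 tied to clathrin and synaptic vesicles (-1.06), and on the heat-inducible list 7 of 13 fell and 1 rose (-0.84).

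Among partners, the Hsp70 exchange factors Bag5 (log2 fold change -3.08 ± 0.51, adjusted p = 1.2e-07; -3.13 relative to all genes) and Bag2 (log2 fold change -2.46 ± 0.61, adjusted p = 0.000668; -2.51 relative to all genes) had the largest falls and were the 2 called of 11. Hsp90 co-chaperones rose in 2 and fell in 4 of 13 cases (median -0.35), folding and stress genes of the endoplasmic reticulum rose in 2 and fell in 3 of 15 (-0.39), and mitochondrial quality control genes fell in 2 of 6 (-0.44). Prefoldin subunits were called once in each direction of 6, with a median of -0.22 that becomes 0.05 in the DESeq2 fit. Of 4 genes tested on the list of heat shock factors and Hsbp1, 1 fell. Gapdh (-1.89 ± 0.60, or -1.94 relative to all genes) and Actb (-0.65 ± 0.14, or -0.70) both fell.

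Oligodendrocyte markers rose in 7 of 7 cases, from a lowest, median and highest sum of 1901, 5139 and 16802 CPM to 5695, 13794 and 22560.4 in paraffin. Choroid plexus markers rose in 2 of 4 cases, from 0, 39.9 and 2017 CPM to 0, 303 and 9016, with Ttr the most abundant (2.67 ± 0.31, or 2.62 relative to all genes). Neuron markers fell in part: 2 of 5 in CA1 (from 37.9, 226 and 1355 CPM to 25.1, 212 and 649.8), 2 of 5 in CA3 (from 92.2, 435 and 1518 to 155, 537 and 977) and 3 of 6 in granule cells (from 73.8, 187 and 1856 to 100.2, 246 and 1136). The most abundant of these were Pou3f1, Elavl2 and Prox1. Interneuron markers rose in 2 and fell in 2 of 7 cases and astrocyte markers in 1 and 1 of 6, and 1 of 4 endothelial markers rose. With DESeq2's size factors, CA1 and CA3 markers fell in 1 of 5 cases each, and astrocyte and endothelial markers rose in 2 cases each. The part of all these shifts in the chaperone falls was not tested.

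**Figure D3:**
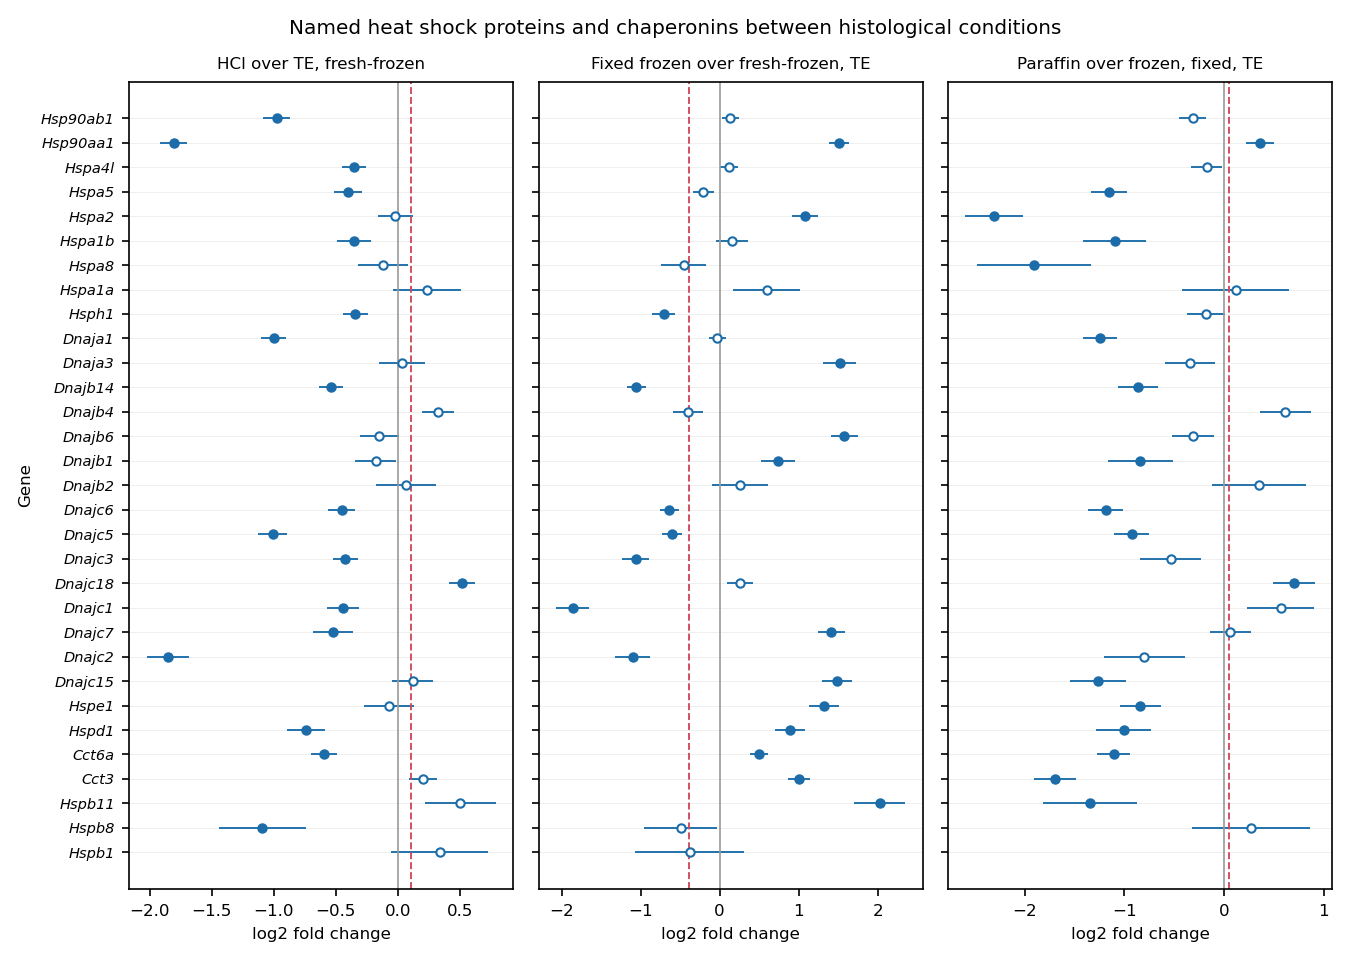
Log2 fold change (point) with its standard error (bar) of the named members in the 3 comparisons of histological conditions under TMM scaling, filled where adjusted p was under 0.05 and open where not. The dashed line is the median of all genes tested. Most named members lie left of it in the panels for HCl and for paraffin and right of it in the panel for fixation, with Hsp90aa1 at -1.80, 1.51 and 0.36, and Hsph1 in the paraffin panel moves from -0.18 to 0.01 with DESeq2's size factors.

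Sequence shared with other genes limits some of these counts, which come from reads near the 3' end of transcripts. Over 20% of the 30-base words in the last 500 bases were shared with another annotated gene for 7 members: Hspa8 (73.7%), Hspe1 (69.9%), Hspb1 (45.3%), Dnaja1 and Hspd1 (both 41.5%), Dnajc17 (36.3%) and Hsp90aa1 (28.6%). Most are words of processed pseudogenes, such as Gm12346 for Hsp90aa1 and Gm7816 for Dnaja1. For Cct6a no value could be computed. Genes outside the members, such as Gapdh and the partners, were not examined for shared sequence.

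The promoters of the heat-inducible genes are shown as background on that list. Whether their letters bear on any difference between regions or conditions was not tested. Sequences are from RefSeq (GRCm38.p6) and cover the 250 bases before a gene's start. Heat shock factor binds arrays of inverted units of GAA, searched here on both strands as GAANNTTC or TTCNNGAA (2 units) and GAANNTTCNNGAA or TTCNNGAANNTTC (3 units, each of which also holds a match of 2 units). The 2-unit motif occurred in 12.84% of all 32851 promoters, in 18 of 83 promoters of members and in 9 of 18 on the heat-inducible list. These come from 64 of the 79 members and 12 of the 14 heat-inducible genes, since a gene may have several starts, and 16 and 8 of those genes held the motif. The RefSeq set used holds no promoter for 15 members, among them Hsp90aa1, Hsp90ab1 and Hspa8. The 3-unit motif occurred in 0.466% of all promoters, in 4 of 83 and in 2 of 18, which are only 2 places in the genome for the members and 1 for the list, because windows overlap. A match describes letters in the window and is not evidence of binding. Hspa1a (chr17:34972157-34972406, minus strand) and Hspa1b (chr17:34959239-34959488, minus strand) share 247 of 250 bases, with the match, in capitals, beginning 104 bases before the start of each.
Hspa1a: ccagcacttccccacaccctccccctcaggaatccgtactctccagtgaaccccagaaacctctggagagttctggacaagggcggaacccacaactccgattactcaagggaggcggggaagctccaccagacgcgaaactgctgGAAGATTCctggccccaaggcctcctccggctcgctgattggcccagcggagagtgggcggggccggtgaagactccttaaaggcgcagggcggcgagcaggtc
Hspa1b: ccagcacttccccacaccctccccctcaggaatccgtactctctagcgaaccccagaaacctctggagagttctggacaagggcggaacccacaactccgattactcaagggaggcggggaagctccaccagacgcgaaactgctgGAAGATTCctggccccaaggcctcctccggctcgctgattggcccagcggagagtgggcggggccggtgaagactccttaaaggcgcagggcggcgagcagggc

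Hspe1 and Hspd1, which code for the lid and the barrel of one machine and rose together with fixation and fell together in paraffin, are neighbours on chromosome 1 that are read in opposite directions (Hspe1 at chr1:55088132-55091307 on the plus strand and Hspd1 at chr1:55077835-55088243 on the minus strand). They share 1 run of 4 units, 18 letters long, in chr1:55088053-55088082, shown in capitals on both strands. The run lies in an annotated exon of Hspd1. It begins 89 bases before the start of Hspe1 and 144 bases before the start of Hspd1 used here. Both of these starts are from RefSeq and lie inside the gene spans given above. Another RefSeq start of Hspd1 has the window chr1:55088244-55088493, which held 0 matches, and the run lies downstream of that start. The stretches of Dnajb6 (chr5:29735843-29735872, plus strand, 3 units) and Hsph1 (chr5:149636351-149636380, minus strand, 2 units) were picked because these genes went in opposite directions with fixation. Whether the letters bear on these directions was not tested. Both matches lie in annotated exons, that of Dnajb6 in exons of Dnajb6 and Gm5129 and that of Hsph1 in an exon of Hsph1.
Hspe1: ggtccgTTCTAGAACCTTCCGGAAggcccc
Hspd1: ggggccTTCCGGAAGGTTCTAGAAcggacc
Dnajb6: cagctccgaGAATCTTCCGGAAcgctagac
Hsph1: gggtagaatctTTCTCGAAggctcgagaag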

How the data were processed

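UMI counts of 48 replicates (CA1, CA3 and DG in 4 histological conditions) were used as the authors deposited them, and all value columns were used (0 unused). Per the submitters' notes, UMI-tools 1.0.0, HISAT2 2.1.0 on GRCm38, featureCounts 1.6.4 and DESeq2 1.20.0 had been used upstream. Differences were tested with edgeR 4.0.16 (quasi-likelihood, TMM) under R 4.3.3 on genes with at least 10 UMIs over the fitted samples. Genes were called at an adjusted p under 0.05 (Benjamini-Hochberg over all genes tested), and errors are standard errors of log2 fold changes. Alternatives tried were DESeq2 1.42.0, its size factors, other filters, a correction for repeated UMIs (6 bases, 4096 sequences), thinning, replicate number as a block, library sums and left-out replicates or conditions.

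Pairing was checked from the data, since the labels give only numbers. Deviations of same-numbered replicates correlated at over 0.1 for all 4 numbers in 3 of the 8 comparisons with DG: CA3 with DG in fresh-frozen HCl (0.228 to 0.433) and, in fresh-frozen TE, CA1 with DG (0.219 to 0.314) and CA3 with DG (0.213 to 0.312). They did so too for CA1 with CA3 in fresh-frozen TE (0.18 to 0.338), which were compared only over libraries, and between fresh-frozen HCl and TE in CA3 (0.259 to 0.369) and DG (0.171 to 0.337) but not in CA1 (0.0289 to 0.184).

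The members and lists were chosen with earlier results of these data known. Named genes were the most abundant member of each family, the heat-inducible list, the 5 largest called changes each way per comparison of conditions (mean of at least 10 UMIs per replicate), and members called between regions over libraries or in the same direction in at least 2 of 4 conditions. Added were partners called over libraries, the 2 partners with the largest change per comparison of conditions, members whose region difference changed with the condition, and Gapdh and Actb. Python 3.11.15 with numpy 2.4.6, pandas 2.3.3 and matplotlib 3.10.9, GENCODE M21 and RefSeq served for summaries and sequences. The result for 1 marker gene is not reported here.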

Additional observations from a re-analysis of the deposited data

Results flagged for a closer look

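Within a library, 1 of the 4 replicates stood far from the other 3 in 10 of 156 groups, over 13 genes, and chance gives about 1 in 20. The 10 include Hspa8 in paraffin CA1 and DG and Hspb11 in paraffin CA1, whose flags were fixed by their few UMIs. The count can therefore not be weighed against chance. High replicates were Hsp90aa1 in DG replicate 3 of fresh-frozen HCl (153.57 CPM), Hspa8 in DG replicate 3 of fresh-frozen TE (36.91 CPM), and Hspe1 in the same replicate (154.34 CPM). Others were Hspa8 in paraffin, CA1 replicate 1 (42.69 CPM) and DG replicate 3 (4.48 CPM), and Hspb11 in DG replicate 4 of fresh-frozen TE (13.58 CPM) and CA1 replicate 3 of paraffin (28.25 CPM). In paraffin, Hspa8 had only 2 UMIs in all of CA1 and 1 in all of DG, and Hspb11 had 2 in all of CA1. A group with all its UMIs in 1 replicate is flagged whatever their number, so these paraffin flags say nothing about the replicates. Low replicates were Cct6a in CA3 replicate 3 of fresh-frozen HCl (179.01 CPM) and Hsp90ab1 in CA1 replicate 4 of fresh-frozen TE (717.75 CPM) and CA3 replicate 1 of fixed frozen (824.96 CPM).

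The difference between a region and DG itself differed from that in fresh-frozen TE for 4 genes. On the log2 scale, CA1 minus DG in fresh-frozen HCl was larger by 2.02 for Hspa8 and by 3.11 for Gapdh. CA1 minus DG in fixed frozen differed by -2.65 for Pfdn5, and CA3 minus DG in fixed frozen was larger by 1.40 for Hsp90aa1.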

How the results depend on the processing

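The count of called members is given below where an alternative moved it more than 1.5-fold, and the cause was not tested unless stated. DESeq2 gave 6 for CA1 against DG in fresh-frozen HCl, 1 in fresh-frozen TE and 1 in fixed frozen, 3 for CA3 against DG in fresh-frozen TE, 0 in paraffin, and 1 for CA1 against CA3 over libraries. Its size factors in edgeR gave 3 for CA3 against DG in fresh-frozen TE. The filter filterByExpr gave 1 for CA1 and 2 for CA3 against DG in fresh-frozen TE, and 1 for CA1 against CA3 over libraries. Replicate number as a block gave 9 and 8 in fresh-frozen TE for CA1 and CA3 and 11 for CA3 in fresh-frozen HCl, and ended 1 call of a named gene, Dnajb1 in paraffin. Thinning every replicate to the smallest total (35932 UMIs), which lowers depth by construction, gave 0 for CA1 against DG in both fresh-frozen conditions, and 0, 0, 2 and 0 for CA3 against DG in fresh-frozen HCl, fresh-frozen TE, fixed frozen and paraffin. It gave 2 for CA3 against DG and 1 for CA1 against CA3 over libraries, 5, 22 and 13 for HCl, fixation and paraffin, and 0 and 0 for the changes in region difference that had 1 call each. It reversed 2 log2 fold changes for HCl against TE, Dnajc7 from -0.52 to 0.37 and Hspa1b from -0.35 to 0.32. Leaving out 1 replicate gave 6 to 11, 0 to 3, 2 to 3 and 0 to 0 for CA1 against DG in the 4 conditions, 3 to 6, 3 to 5, 3 to 6 and 0 to 2 for CA3 against DG, and 26 to 29, 35 to 40 and 23 to 27 for HCl, fixation and paraffin. Leaving out 1 condition gave 1 to 4 for CA1 against DG (1 without either fresh-frozen condition), 2 to 5 for CA3 against DG (3 without HCl and 2 without TE) and 2 to 2 for CA1 against CA3. Among called changes of named genes, no direction changed under DESeq2 (80 kept their call and 12 lost it) or its size factors (88 and 4). The same held for the correction for repeated UMIs (92 and 0), filterByExpr (77 and 4) and no filter (89 and 3). It held too for the block (80 and 1), library sums (49 and 5) and a left-out replicate (1415 and 97), while thinning kept 35 and lost 48. Changes that were not called are outside this tally, such as that of Hsph1 in paraffin, which turned with DESeq2's size factors. Depth limits the comparisons of regions in fixed tissue, where 9385 and 9353 genes (fixed frozen) and 8969 and 9380 genes (paraffin) could be tested, beside 14011 to 15161 in unfixed tissue.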
